A study of Mus musculus with 4 samples.

Results

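The transcripts described here are those that separate fasted mouse liver in which both cytochrome b5 genes were targeted from fasted control liver. The targeted fasted library carries the genotype label L_Cyb5b_shCyb5a, in which L stands for liver per the design text, and the control fasted library is labelled WT with shNC. The companion pair of libraries came from refed liver with the same genotype labels. Strain, sex, age, the duration of fasting, the allele, the vector of the hairpin and the number of mice behind a library do not appear in the labels. Each group has 1 library of total RNA isolated with TRIzol, so every difference below compares 2 libraries, has no replicate check and carries no p-value. The deposited fasted table holds 722 genes, and the 670 genes with at least 1 TPM (a transcript level corrected for length and scaled to the same total in every library) in either fasted library are described. Among them, 100 genes on lists of P450 enzymes, bile acid genes, major urinary proteins or markers of other cell types and 26 genes with predicted or clone names were set aside. That left 544 genes. A function list counts all its members, and where it holds genes that were set aside the count without them is given too. Values in the refed libraries are given beside those of the fasted pair.

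Cytochrome b5 proteins are small haem proteins of the endoplasmic reticulum and the outer mitochondrial membrane that hand electrons to desaturases, sterol-modifying enzymes and P450 enzymes. A fasting liver breaks down glycogen, makes glucose from amino acids and glycerol, oxidises fatty acids and holds low its synthesis of lipid. Many of the genes that carry out this switch respond to glucagon, glucocorticoid and insulin within hours, and some of them also follow the clock.

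Both targeted transcripts were lower in the library labelled as targeted. Cyb5a stood at 207 TPM in targeted fasted and 1686 TPM in control fasted liver, 8.13-fold lower (6.96 to 9.55). Cyb5b stood at 27.4 TPM in targeted fasted and 72.4 TPM in control fasted liver, 2.64-fold lower (2.47 to 2.82). Neither transcript was at 0, so the data describe lowered levels of both genes and not their absence. None of 22 listed partners of cytochrome b5 and none of 25 listed cholesterol synthesis genes is in the fasted table. The partner list does not hold the 20 P450 genes that are members. Of these set-aside genes, 15 were higher and 3 lower past 2-fold.

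The deposited table holds only genes whose log2 ratio passed a threshold, since the smallest absolute log2 ratio in the authors' deposited table is 1, so each count below is a count among preselected genes. The deposited p-values, which compare the reads of the 2 libraries, are all small too, so a second selection on them is likely. Of the 670 genes, 201 were higher in targeted fasted liver (30%) and 469 lower (70%). At a difference of 2-fold in TPM, 197 were higher (29.4%) and 296 lower (44.2%), and 60.0% of the genes past 2-fold were lower. On FPKM, a level corrected for length and scaled to the reads of the library, 183 of the same genes were higher (27.3%) and 460 lower (68.7%), so that 71.5% were lower. The log2 ratio of TPM exceeds that of FPKM by a median of 0.21 in the fasted pair and by 0.03 in the refed pair. No gene turned its direction between these scales, but a shift of this size could hardly turn genes preselected on their ratio. Median log2 ratios below are of TPM and stand beside -0.95 for all 670 genes. The range in parentheses after a fold is a 95% interval for counting error only, from recovered reads, and says nothing of the spread between mice. Those reads come from the deposited ratios and p-values of preselected genes, and 665 of 667 intervals exclude 1. An interval is thus no separate support for a difference.

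The depth estimated from the recovered reads was about 13500000 reads for targeted fasted and about 13600000 for control fasted liver. Of 212 listed marker symbols of other cell types, 65 are in the fasted table, so most listed markers are absent from it and not counted. In the fasted pair, all 63 marker genes among the members (endothelium 23, macrophages 15, lymphocytes 12, stellate cells and matrix 6, blood 4, neutrophils 3) were lower in targeted liver. Past 2-fold lower were 37 of the 63 marker genes, while 70% of all members were lower and 44.2% past 2-fold lower. Their summed level was 971 TPM in targeted fasted and 1950 TPM in control fasted liver, and none of them was at 0 in either library. In the refed pair 59 of the 63 were higher in targeted liver, beside 76.3% of all members. Their sum was 1032 TPM in targeted refed and 712 TPM in control refed liver. Fewer cells of a type and less RNA per cell cannot be told apart in whole tissue. The part of these cells in the groups below was not tested. None of 8 defining hepatocyte markers is in the table, which holds abundant liver transcripts such as those of the major urinary proteins, at a summed 23480 TPM in targeted fasted and 63167 TPM in control fasted liver.

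Among the members, 8 of 11 detoxification genes outside the P450 family and all 6 ATP-binding cassette transporters were higher in targeted fasted liver. The 16 immediate early, 3 clock and 14 cytokine members and both metallothioneins were all lower, in a set of which 70% were lower. The function lists are longer than their members, with 148 detoxification, 62 immediate early and 25 clock symbols. Listed genes outside the fasted table or under 1 TPM have no count here. The plot of selected function lists sets each list's genes beside the median of all members. The empty band around no difference comes from the threshold of the deposited table.

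**Figure D1:**
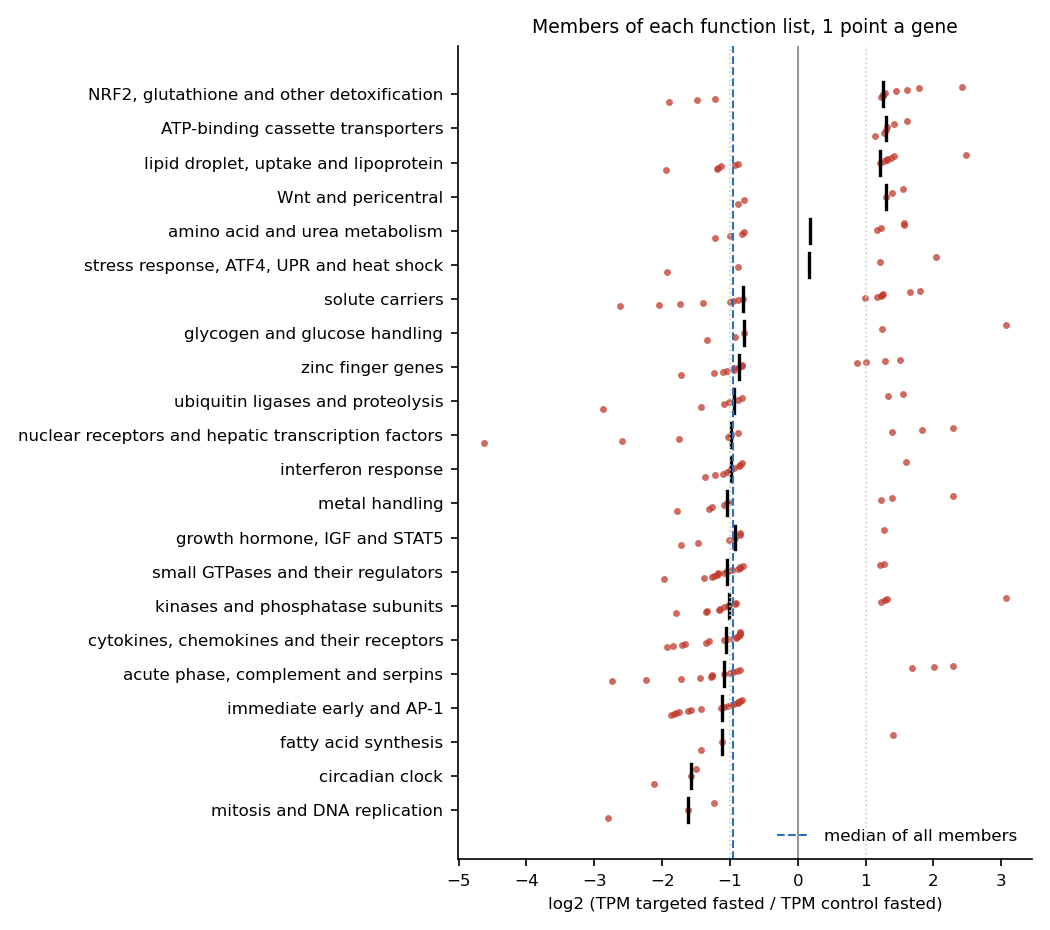
Log2 ratio of TPM, targeted fasted over control fasted (x axis), of the members of selected function lists with at least 3 members (y axis). Each point is a gene and the black bar is the list's median. The dashed line is the median of all 670 members at -0.95 and the dotted lines mark 2-fold. Some lists with at least 3 members are not drawn. Mogat1, at 0 in control fasted liver, has no ratio and is not drawn. The points of the immediate early list all lie left of 0 and those of the ATP-binding cassette list all lie right of it.

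Immediate early genes encode transcription factors and signalling brakes that are transcribed within minutes of a hormone, growth factor or stress signal and whose RNAs decay quickly. All 16 members of this list were lower in targeted fasted liver, 10 of them past 2-fold, beside 44.2% of all members. Their median log2 ratio was -1.11. On FPKM all 16 were past 2-fold lower, beside 460 of all 670 members (68.7%), of which 469 were lower by any amount. The preselection on the ratio makes this likely for any lower gene. Dusp1, which encodes a phosphatase that switches off MAP kinases, had 13.3 TPM in targeted fasted and 48.4 TPM in control fasted liver, 3.65-fold lower (3.16 to 4.22). Gadd45g, a growth arrest gene, had 55.3 TPM in targeted fasted and 191 TPM in control fasted liver, 3.46-fold lower (3.13 to 3.84). Control fasted liver held the highest level of the 4 libraries for both of these genes. The AP-1 subunit gene Fos was low throughout, with 0.87 TPM in targeted fasted and 2.66 TPM in control fasted liver, 3.06-fold lower (1.76 to 5.59) on 17 targeted and 59 control reads. Klf4 and Klf2, which encode zinc finger transcription factors, were 3.54-fold (1.80 to 7.6) and 2.98-fold lower (2.17 to 4.14). Klf2 is also strongly expressed in endothelium, whose markers among the members were lower in the same library. Ccn2, a secreted matrix protein gene, was 2.70-fold lower (2.22 to 3.30), and Maff, a small Maf factor, 2.20-fold lower (1.69 to 2.90). Zfp36 and Zfp36l2, whose proteins bind AU-rich RNA and speed its decay, lay inside 2-fold at 1.77-fold (1.6 to 1.97) and 1.91-fold lower (1.79 to 2.04).

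In the refed pair 11 of the same 16 genes were higher in targeted liver and 5 lower, with a median log2 ratio of 0.33, beside 76.3% of all members higher and a median of 0.38. Dusp1 stood at 16.9 TPM in targeted refed and 24.1 TPM in control refed liver. Gadd45g stood at 33.2 TPM in targeted refed and 22.9 TPM in control refed liver. Fos, with 2.01 TPM in targeted refed and 0.96 TPM in control refed liver, had the opposite order to the fasted pair. A cAMP response element, the palindrome TGACGTCA bound by CREB, lay within 250 bases before and 50 after the annotated start of 3 of the 12 immediate early members found in the RefSeq promoter table. The 3 genes are Dusp1, Btg2 and Maff. The same letters occurred in 2.03% of all 27025 genes with a promoter in that table and in 5 of 504 matched members. Of the other motifs searched, TGCGCNC occurred in 8 of the 12 (17% of all promoters) and CACGTG in 4 (8.09%). TGCACNC occurred in 1 (14.2%), TGANTCA in 1 (8.97%), and TTATGTAA and GTAAACA in 0. A role of any of these motifs was not tested. The Dusp1 window is shown because this gene had the lowest ratio of the list, with the element in capitals (RefSeq, GRCm38.p6, 5′ to 3′ on the gene's strand).
Dusp1, chr17:26508423-26508722, minus strand: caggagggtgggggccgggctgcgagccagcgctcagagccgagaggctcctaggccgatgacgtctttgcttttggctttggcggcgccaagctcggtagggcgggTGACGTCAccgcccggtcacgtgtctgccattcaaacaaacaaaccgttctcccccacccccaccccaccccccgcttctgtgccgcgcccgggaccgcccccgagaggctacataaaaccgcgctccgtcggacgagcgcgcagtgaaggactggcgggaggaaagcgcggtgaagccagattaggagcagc

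Clock output genes were represented by 3 members, all past 2-fold lower in targeted fasted liver, beside 44.2% of all members. Noct, which encodes the rhythmic NADP(H) phosphatase nocturnin, had 17.2 TPM in targeted fasted and 74.6 TPM in control fasted liver, 4.33-fold lower (3.87 to 4.85). Dbp, a PAR bZIP transcription factor driven by the clock, had 5.13 TPM in targeted fasted and 15.3 TPM in control fasted liver, 2.98-fold lower (2.28 to 3.93). Ciart, a repressor of the CLOCK and BMAL1 pair, had 4.41 TPM in targeted fasted and 12.5 TPM in control fasted liver, 2.84-fold lower (2.12 to 3.84). All 3 genes stood lower in both refed libraries, at 2.95 TPM or less in targeted refed and 3.75 TPM or less in control refed liver. The labels do not say at what time of day each liver was taken. The core clock genes Arntl, Clock, Per1, Per2, Cry1 and Nr1d1 are not among the members and were not analysed here. CLOCK and BMAL1 bind the E-box CACGTG, which occurred 3 times in the Ciart window printed here with the boxes in capitals and in 8.09% of all promoters in the table. No copy was found in the windows of Dbp and Noct.
Ciart, chr3:95882179-95882478, minus strand: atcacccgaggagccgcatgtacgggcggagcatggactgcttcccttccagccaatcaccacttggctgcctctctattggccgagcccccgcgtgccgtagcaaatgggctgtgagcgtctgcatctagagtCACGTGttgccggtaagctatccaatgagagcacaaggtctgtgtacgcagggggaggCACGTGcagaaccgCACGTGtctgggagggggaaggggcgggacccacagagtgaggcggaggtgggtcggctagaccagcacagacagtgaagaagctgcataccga

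Glycogen-targeting subunits bring protein phosphatase 1 to glycogen, where it activates glycogen synthase. Ppp1r3c had 21.6 TPM in targeted fasted and 2.57 TPM in control fasted liver, 8.39-fold higher (6.58 to 10.8). It stood at 48.9 TPM in targeted refed and 51.3 TPM in control refed liver, so the control fasted library was the low one of the 4. Ppp1r3g, another subunit of the family, went the other way, with 31.5 TPM in targeted fasted and 79.9 TPM in control fasted liver, 2.54-fold lower (2.32 to 2.78). In refed liver it was near 0, at 1.24 TPM in targeted refed and 0.28 TPM in control refed liver. Gpd1, the cytosolic glycerol-3-phosphate dehydrogenase, had 199 TPM in targeted fasted and 84.2 TPM in control fasted liver, 2.37-fold higher (2.26 to 2.48). Igfbp1, a fasting-induced binding protein for insulin-like growth factors, had 821 TPM in targeted fasted and 1559 TPM in control fasted liver, while both refed libraries held 174 TPM (targeted) and 173 TPM (control). The 5 members of the glycogen and glucose list were split, with 2 higher and 1 lower past 2-fold, beside 29.4% and 44.2% of all members.

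Genes of amino acid and one-carbon metabolism were split. Bhmt, which remethylates homocysteine with betaine, had 2481 TPM in targeted fasted and 837 TPM in control fasted liver, 2.96-fold higher (2.81 to 3.13). The order was turned in refed liver, with 1151 TPM in targeted refed and 2201 TPM in control refed liver. Gldc and Amt, which encode parts of the glycine cleavage system, were 2.33-fold (2.19 to 2.49) and 2.24-fold higher (1.94 to 2.61). Ddc, the aromatic amino acid decarboxylase, was 2.97-fold higher (2.65 to 3.33), with 60.7 TPM in targeted fasted and 20.4 TPM in control fasted liver. Abat, the GABA transaminase, was 2.26-fold higher (2.16 to 2.36). Control fasted liver was the lowest of the 4 libraries for Bhmt, Gldc, Amt and Ddc. On the lower side stood Upp2, a uridine phosphorylase, with 198 TPM in targeted fasted and 460 TPM in control fasted liver, 2.32-fold lower (2.20 to 2.46). Nnmt, which methylates nicotinamide, lay just inside 2-fold, at 364 TPM in targeted fasted and 724 TPM in control fasted liver. The serine-degrading Sds and its neighbour and paralogue Sdsl were lower by 1.74-fold and 1.78-fold. Of the 8 members of the list, 4 were higher and 1 lower past 2-fold, beside 29.4% and 44.2% of all members.

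A few purine and pyrimidine genes, chosen after their values were seen, were higher. Urad, an enzyme of urate breakdown, had 40.3 TPM in targeted fasted and 15.8 TPM in control fasted liver, 2.55-fold higher (1.99 to 3.30). Tymp, the thymidine phosphorylase, had 48.4 TPM in targeted fasted and 15.8 TPM in control fasted liver, 3.06-fold higher (2.72 to 3.44). Nt5e, the ectoenzyme that makes adenosine from AMP, was 3.09-fold higher (2.43 to 3.94). In the pathway annotation that the deposited table carries, 10 members belong to purine metabolism. Of these, 5 were higher and 4 lower past 2-fold, beside 29.4% and 44.2% of all members.

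The metal handling list held 9 members, all past 2-fold, 3 higher and 6 lower, or 3 higher and 5 lower without the set-aside marker Bmp2. Of all members, 29.4% were past 2-fold higher and 44.2% lower. Hamp2, a mouse paralogue of the iron hormone gene hepcidin, had 233 TPM in targeted fasted and 47.7 TPM in control fasted liver, 4.88-fold higher (3.87 to 6.23). It stood at 129 TPM in targeted refed and 104 TPM in control refed liver, so the control fasted library was lowest. The recovered control read number of Hamp2 was not whole, so part of its reads may have been shared with another gene or transcript. Genes of the BMP pathway that induces hepcidin were lower, with Bmp2 at 2.47-fold (2.05 to 2.98), Bmp6 at 2.03-fold (1.41 to 2.96) and the inhibitor Smad7 at 2.05-fold lower (1.5 to 2.83). Bmp2 and Bmp6 are made mainly by liver endothelium, whose 23 markers among the members (of 39 listed), Bmp2 included, were all lower, beside 70% of all members. Scara5, a ferritin receptor gene, had 3.97 TPM in targeted fasted and 13.6 TPM in control fasted liver, 3.42-fold lower (2.85 to 4.12). The same order held in refed liver, with 3.0 TPM in targeted refed and 12.2 TPM in control refed liver. Slc30a10, a manganese exporter, and Atp7b, the copper-transporting ATPase of hepatocytes, were 2.35-fold (2.03 to 2.74) and 2.61-fold higher (2.14 to 3.21).

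Metallothioneins are small cysteine-rich proteins that bind zinc and copper and are induced by metals, glucocorticoid and fasting. Mt1 had 392.1 TPM in targeted fasted and 945 TPM in control fasted liver, 2.41-fold lower (2.25 to 2.59). Mt2 had 381 TPM in targeted fasted and 810 TPM in control fasted liver, 2.13-fold lower (1.98 to 2.28). Both genes were far lower in refed liver, where the order was turned, with 37.4 TPM of Mt1 in targeted refed and 23.7 TPM in control refed liver. Mt2 stood at 30.5 TPM in targeted refed and 13 TPM in control refed liver. The 2 genes are neighbours on chromosome 8. Their promoter windows are shown because metallothionein promoters are known for the metal response element, to which the zinc-sensing factor MTF1 binds. Its core, TGCACNC or TGCGCNC on either strand, is in capitals and occurred 3 times in the Mt1 and 4 times in the Mt2 window. The first form occurred in 14.2% and the second in 17% of all promoters in the table, so single matches are common.
Mt1, chr8:94178839-94179138, plus strand: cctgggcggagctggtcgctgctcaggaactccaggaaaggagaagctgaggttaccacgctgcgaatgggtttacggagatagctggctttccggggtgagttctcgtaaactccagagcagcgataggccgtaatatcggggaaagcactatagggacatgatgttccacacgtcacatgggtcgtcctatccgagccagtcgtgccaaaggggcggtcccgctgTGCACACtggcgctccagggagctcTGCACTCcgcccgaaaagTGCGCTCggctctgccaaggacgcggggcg
Mt2, chr8:94172368-94172667, plus strand: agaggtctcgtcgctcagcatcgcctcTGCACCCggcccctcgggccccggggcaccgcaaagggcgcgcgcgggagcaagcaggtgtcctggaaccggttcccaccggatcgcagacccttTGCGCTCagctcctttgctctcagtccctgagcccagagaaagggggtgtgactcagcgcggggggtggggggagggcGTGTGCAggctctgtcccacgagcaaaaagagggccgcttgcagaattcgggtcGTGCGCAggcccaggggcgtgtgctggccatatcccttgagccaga

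Secreted proteins of the acute phase, complement and serpin list were lower in 12 of 15 cases, 9 of them past 2-fold (11 and 9 of 14 without the marker Cd14), beside 70% and 44.2% of all members. Serpina1e, a copy of the alpha-1-antitrypsin gene, had 501 TPM in targeted fasted and 3358 TPM in control fasted liver, 6.70-fold lower (5.84 to 7.71). In refed liver it stood at 7226 TPM in targeted refed and 10275 TPM in control refed liver, so the targeted fasted library was the lowest of the 4. It has near-identical paralogues, and how the authors' counting split their reads is not known. Serpina7, the thyroxine-binding globulin, was 3.29-fold lower (2.63 to 4.14), and Serpina12, vaspin, 2.40-fold lower (2.03 to 2.85). Serpine2, a thrombin inhibitor gene, had 2.85 TPM in targeted fasted and 13.4 TPM in control fasted liver, 4.70-fold lower (3.51 to 6.41). Serpina1e, Serpina7, Serpina12 and Serpine2 were lower in targeted than in control liver in the refed pair too, by less. Orm3, an orosomucoid gene, and Serpinb1a, an elastase inhibitor, were higher, by 3.22-fold (2.02 to 5.28) and 4.01-fold (2.35 to 7.14). Leap2, the liver hormone that blocks the ghrelin receptor, was chosen after its values were seen and had 112 TPM in targeted fasted and 44.7 TPM in control fasted liver. It stood at 309 TPM in targeted refed and 324 TPM in control refed liver.

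**Figure D2:**
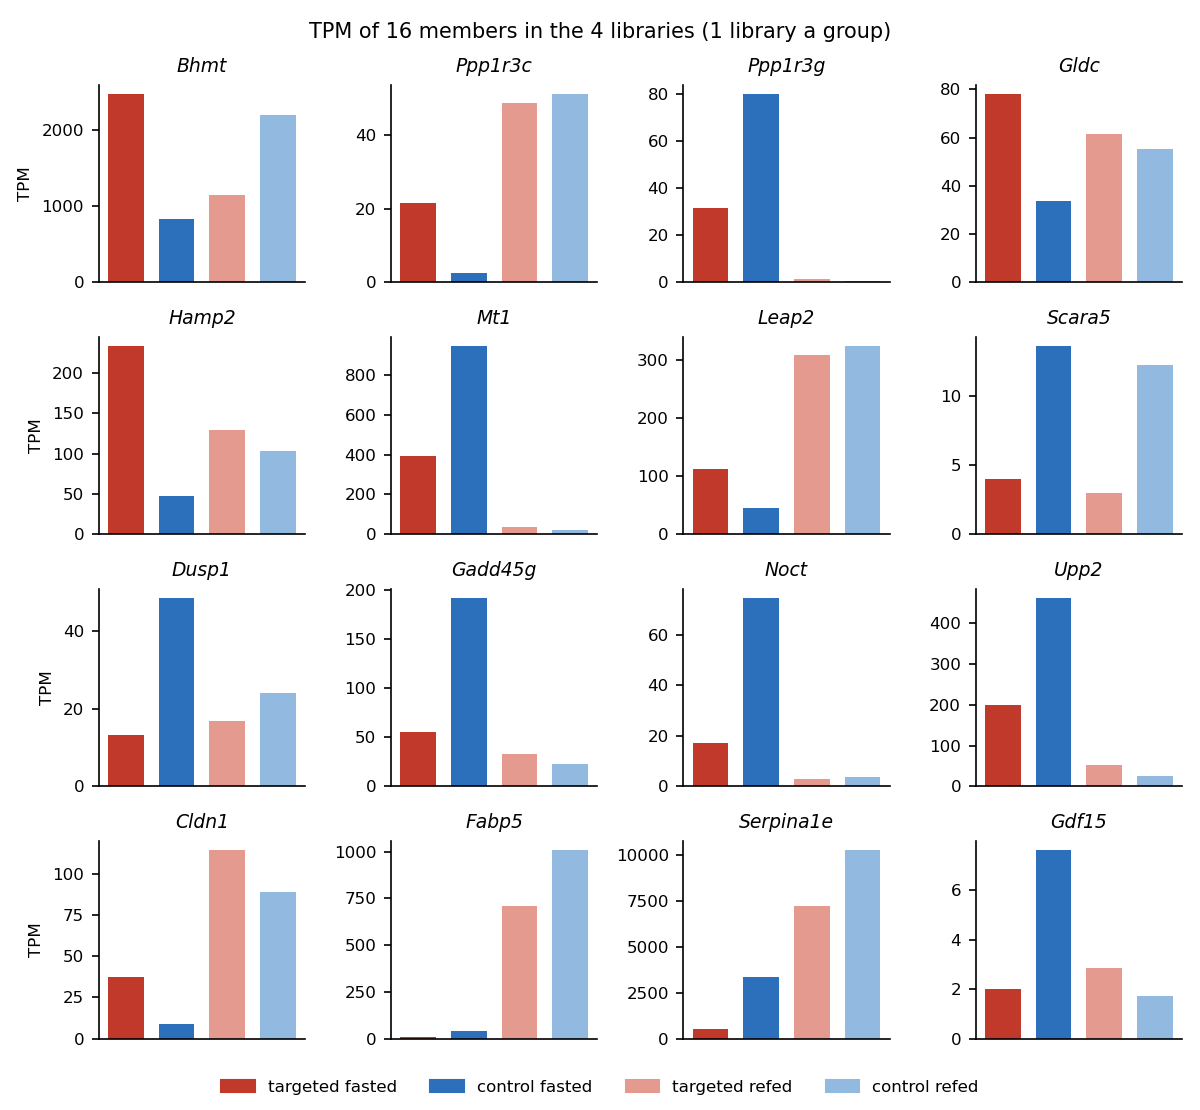
TPM (y axis, from 0, with its own scale in each panel) of 16 members in targeted fasted, control fasted, targeted refed and control refed liver, left to right, 1 library a bar and no error bars because there are no replicates. Bhmt, Ppp1r3c, Gldc, Hamp2, Leap2 and Cldn1 have their lowest bar in control fasted liver, while Ppp1r3g, Mt1, Dusp1, Gadd45g, Noct, Upp2 and Gdf15 have their highest bar there. Of the 240 genes past 2-fold lower among the 544 described, 208 have their highest level in control fasted liver. The matching share for the lowest level was not counted.

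Cytokines, chemokines and their receptors were lower in all 14 cases, 8 of them past 2-fold, beside 70% and 44.2% of all members, with a median log2 ratio of -1.05. Without the set-aside markers Bmp2, Ccl5 and Il1b, 5 of 11 were past 2-fold lower and the median was -0.91. Gdf15, a stress hormone gene that acts on the brainstem, had 2.01 TPM in targeted fasted and 7.61 TPM in control fasted liver, 3.79-fold lower (2.43 to 6.11). Il1a and Il1b, neighbouring genes for interleukin-1, were 3.58-fold and 3.27-fold lower. Most genes of this list are expressed by immune cells or endothelium. The 53 markers of these cells among the members summed to 788 TPM in targeted fasted and 1588 TPM in control fasted liver. Interferon-responsive genes were lower in 10 of 11 cases, 5 past 2-fold, with a median log2 ratio of -0.99, so the share past 2-fold was near the 44.2% of all members. The only higher one, F830016B08Rik, has a set-aside clone name, so without it all 10 were lower. Slfn2 was 2.58-fold (1.92 to 3.52) and Oas2 2.32-fold lower (1.80 to 3.02). In the refed pair all 11 interferon-responsive genes were higher in targeted liver, beside 76.3% of all members, with a median log2 ratio of 0.55. A neighbouring run of the Ifi200 family, chosen after its values were seen and made of Ifi209, Ifi208, Ifi207, Ifi204 and Mndal, was lower in the fasted pair in every gene, between log2 ratios of -0.85 and -1.11.

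Detoxification enzymes outside the P450 family were higher in 8 of 11 cases, all 8 past 2-fold, beside 29.4% of all members, with a median log2 ratio of 1.26, and in 7 of 10 without the set-aside Abcc3. Gstm3, a glutathione transferase, had 267 TPM in targeted fasted and 49.9 TPM in control fasted liver, 5.36-fold higher (4.89 to 5.88). Aox1, an aldehyde oxidase, had 36.6 TPM in targeted fasted and 10.6 TPM in control fasted liver, 3.45-fold higher (3.12 to 3.81). Gstt3, another glutathione transferase, was 2.72-fold higher (2.39 to 3.10). The carboxylesterase Ces2c was at 2.39-fold higher (1.99 to 2.88), and the glucuronosyltransferase Ugt1a9 at 2.35-fold higher (2.22 to 2.48). Gstm3, Ces2c and the Ugt genes have close paralogues that can share reads, which makes each value uncertain. The quinone reductase Nqo1 and the epoxide hydrolase Ephx1 had the same order in both feeding states, and Ephx1 stood at 310 TPM in targeted refed and 94.1 TPM in control refed liver. The lower members were Ugt2b38, 3.74-fold (2.63 to 5.43), the acetyltransferase Nat8, 2.79-fold (2.03 to 3.91), and the aldo-keto reductase Akr1b8, 2.33-fold (1.37 to 4.11).

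All 6 members of the ATP-binding cassette family were past 2-fold higher, beside 29.4% of all members, with a median log2 ratio of 1.31. Abcc3, an exporter of conjugates to blood, stood at 83.3 TPM in targeted fasted and 27.2 TPM in control fasted liver. Abca6 had 109 TPM in targeted fasted and 45.1 TPM in control fasted liver, 2.41-fold higher (2.31 to 2.51), and Abca2 was 2.46-fold higher (2.09 to 2.91). Abcb11, Abcc3 and Abcg8, which export bile acids, conjugates or sterols, belong to the set-aside bile acid list, so 3 of the 6 are among the 544 genes. On FPKM 5 of the 6 genes were past 2-fold higher, beside 27.3% of all members. Their median transcript length was 5133 nucleotides, and long transcripts were more often higher, as described further on. Solute carriers were split, with 6 of 15 higher and 4 lower past 2-fold, beside 29.4% and 44.2% of all members. Without the set-aside Slc10a2 and Slco1a4 the counts were 5 and 3 of 13. Slc10a5, an orphan of the bile acid carrier family, was 3.16-fold higher (2.77 to 3.62), Slc25a30, a mitochondrial carrier, 2.39-fold (2.14 to 2.66) and the phosphate importer Slc20a2 2.26-fold higher (2.01 to 2.53). Slc15a2, a peptide transporter, had 2.96 TPM in targeted fasted and 9.86 TPM in control fasted liver, and the order was turned at 2.68 TPM in targeted refed and 0.96 TPM in control refed liver.

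Lipid droplet, uptake and lipoprotein genes stood on both sides. Scarb1, the HDL receptor, had 140 TPM in targeted fasted and 54.0 TPM in control fasted liver, 2.60-fold higher (2.44 to 2.76). Fitm2, which is needed for lipid droplets to form, had 48.9 TPM in targeted fasted and 21.1 TPM in control fasted liver, 2.32-fold higher (2.04 to 2.65). Smpd3, a neutral sphingomyelinase, was 5.57-fold higher (3.23 to 10.2) on 79 targeted and 16 control reads. Mogat1, an acyltransferase of triglyceride synthesis, had 1.32 TPM in targeted fasted liver and was listed at 0 in control fasted liver. Fabp5, a fatty acid binding protein gene, had 11.1 TPM in targeted fasted and 42.6 TPM in control fasted liver, 3.85-fold lower (3.01 to 4.98), and stood at 711 TPM in targeted refed and 1006 TPM in control refed liver. Fabp4 was 2.27-fold lower (1.79 to 2.91) and Plin4, a droplet coat protein, 2.25-fold lower (2.03 to 2.50). Hilpda, an inhibitor of triglyceride lipase, was 2.19-fold lower (1.63 to 2.97). Fabp4 is also an endothelial gene, and Hilpda was chosen after its values were seen. Of the 14 members, 8 were higher and 4 lower past 2-fold, beside 29.4% and 44.2% of all members. Without the set-aside Abcg8 and G0s2 the counts were 7 and 4 of 12. The transporters Abca6, Abcd2 and Abcg8 are 3 of the 8 higher members. In the fatty acid synthesis list, Acss3, a mitochondrial acyl-CoA synthetase, was 2.64-fold higher (2.31 to 3.03). The acetoacetyl-CoA synthetase Aacs and the fatty acid elongase Elovl6, its other members, were past 2-fold lower at log2 ratios of -1.42 and -1.12.

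Genes of epithelial junctions, a group chosen after the values were seen, included several at higher levels. Cldn1, the tight junction claudin of hepatocytes and bile duct cells, had 37.2 TPM in targeted fasted and 9.07 TPM in control fasted liver, 4.11-fold higher (3.63 to 4.66). It stood at 114 TPM in targeted refed and 89.0 TPM in control refed liver. Cgn and Tjp3, which encode cytoplasmic tight junction proteins, were 2.28-fold (1.97 to 2.64) and 2.45-fold higher (1.91 to 3.15), and the desmosomal Dsp was 2.38-fold higher (2.11 to 2.69). Cldn14, another claudin, was 2.45-fold lower (1.58 to 3.93). Of the 10 members annotated to tight junctions in the deposited table, 4 were higher and 4 lower past 2-fold, beside 29.4% and 44.2% of all members. No member is on the cholangiocyte marker list. Among Wnt pathway genes, the receptors Lgr5, Lrp5 and Fzd4 were 2.93-fold (1.76 to 5.03), 2.62-fold (2.33 to 2.94) and 2.46-fold higher (1.94 to 3.16), while the ligand-like enhancer Rspo3 lay at 1.84-fold lower (1.43 to 2.37). The 3 receptor genes have transcripts of 4714, 5161 and 6720 nucleotides, and Rspo3 is a set-aside marker.

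Stress and nutrient signalling genes were few. Sesn3 and Sesn2, which encode inhibitors of mTORC1, were 4.09-fold (2.53 to 6.90) and 2.32-fold higher (1.80 to 3.03). Ddit4, another inhibitor of mTORC1, went the other way, with 17.2 TPM in targeted fasted and 31.6 TPM in control fasted liver. Ern1, the IRE1 sensor of the unfolded protein response, had 10.5 TPM in targeted fasted and 2.51 TPM in control fasted liver, 4.18-fold higher (3.38 to 5.19). Control fasted liver was again the low library, since Ern1 stood at 8.84 TPM in targeted refed and 11.2 TPM in control refed liver. Coq8a, needed for coenzyme Q synthesis, had 136 TPM in targeted fasted and 49.0 TPM in control fasted liver, 2.77-fold higher (2.61 to 2.95), and Lactb2, a mitochondrial ribonuclease, was 2.29-fold higher (2.16 to 2.43). Car5a, the mitochondrial carbonic anhydrase, and Taco1, which helps translate a cytochrome oxidase subunit, were chosen after their values were seen and were 3.06-fold (2.50 to 3.77) and 3.35-fold higher (2.59 to 4.37). Cox17, the copper chaperone of cytochrome oxidase, was 2.04-fold lower (1.75 to 2.38).

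Abundant lower transcripts outside metabolism included short ones. Tmsb4x, an actin-sequestering thymosin, had 353 TPM in targeted fasted and 803 TPM in control fasted liver, 2.28-fold lower (2.14 to 2.42), from a transcript of 864 nucleotides. Rpl22l1, a ribosomal protein paralogue with a transcript of 552 nucleotides, was 2.26-fold lower (2.01 to 2.54). Ptp4a1, a phosphatase gene, and the cell cycle kinase gene Plk3 were 2.03-fold (1.94 to 2.13) and 3.06-fold lower (2.83 to 3.31). Gtse1 and Top2a, the other mitosis genes, were past 2-fold lower as well, both at or below 1.08 TPM in each fasted library.

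The extremes of the ratio were mostly genes at low levels. Hist1h2br had 9.67 TPM in targeted fasted and 0.07 TPM in control fasted liver, a log2 ratio of 7.11, but its log2 ratio in the authors' deposited table is 3.65. The read numbers behind it are small and not whole, at 18.8 targeted and 1.5 control reads, so this value is uncertain. Megf9, Zbed6, Lmbrd2 and Tram2 were among the highest ratios, at 6.10-fold (4.35 to 8.73), 5.98-fold (4.88 to 7.38), 5.91-fold (4.61 to 7.65) and 5.51-fold higher (3.34 to 9.57). All 4 had transcripts of at least 5007 nucleotides and stood at or below 2.85 TPM in both refed libraries. Gatad1, a chromatin protein gene, had 3.96 TPM in targeted fasted and 23.8 TPM in control fasted liver, 6.02-fold lower (4.85 to 7.54), and the same order in refed liver at 2.66 TPM in targeted refed and 13.5 TPM in control refed liver. The homeobox paralogues Cphx1 and Cphx2 went in opposite directions and turned round in refed liver. Cphx1 had 0.20 TPM in targeted fasted and 4.94 TPM in control fasted liver, and Cphx2 had 2.44 TPM in targeted fasted and 0.50 TPM in control fasted liver. Their recovered read numbers are not whole, so reads may be split between the copies. Gm14296 was listed at 0 in targeted fasted liver and at 6.61 TPM in control fasted liver.

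Transcript length moved with direction in the fasted pair. Lengths of the longest protein-coding transcript in GENCODE M21 were matched for 657 of the 670 members (98.1%). Among the members described by function, those past 2-fold higher had a median of 4289 nucleotides (n = 162 genes) and those past 2-fold lower 2733 nucleotides (n = 239 genes). Of the 31 genes with transcripts of up to 1000 nucleotides, 5 were higher in targeted liver (16.1%), and of the 75 genes over 6000 nucleotides, 51 were higher (68%). The Spearman correlation of length and log2 ratio was 0.24 across these 541 genes, which share both libraries, and -0.04 across 540 genes for the ratio in the refed pair. The factor between TPM and FPKM, which depends on the lengths of the transcripts read, was 1.504 in targeted fasted and 1.304 in control fasted liver, and 1.251 in targeted refed and 1.228 in control refed liver. The part of RNA integrity or library preparation in this pattern was not tested. The direction of a single long or short transcript is therefore given as measured in these 2 libraries. Median lengths were 5133 nucleotides in the ATP-binding cassette list, 2459 in the immediate early list and 1880 in the detoxification list, beside 2956 in all members.

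**Figure D3:**
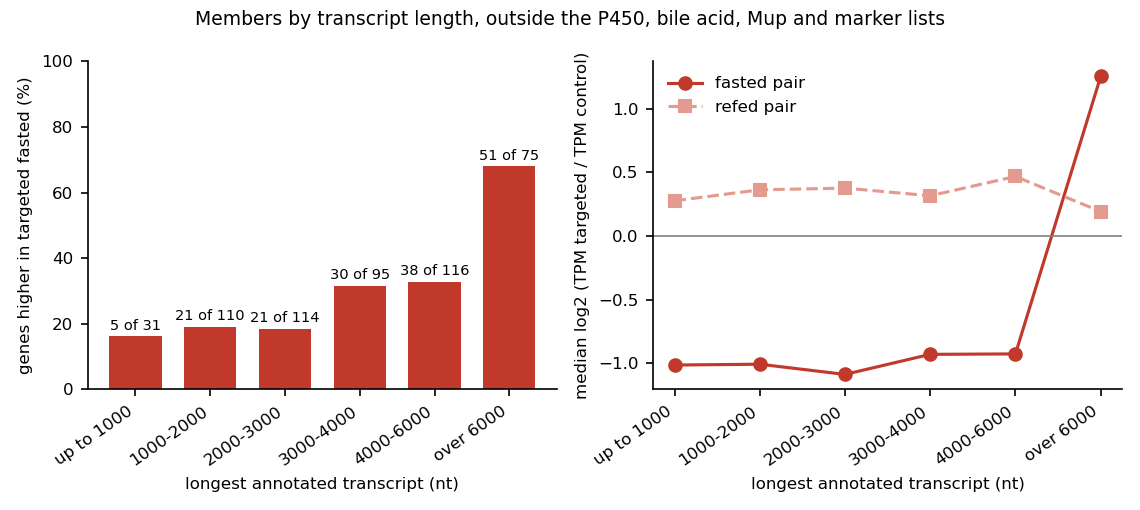
Left, percent of members higher in targeted fasted than in control fasted liver (y axis) by the length of the longest annotated transcript in nucleotides (x axis), with the number of genes above each bar; right, median log2 ratio of TPM, targeted over control, in the fasted pair and in the refed pair for the same bins. The share of higher genes is 16.1% in the shortest and 68% in the longest bin, and the refed medians lie between 0.19 and 0.47 in all bins.

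The refed pair shares no library with the fasted pair, and its values played no part in the rule for members or calls. Of the 197 genes past 2-fold higher in targeted fasted liver, 195 have a ratio in the refed pair, of which 133 were higher in targeted refed liver (68.2%). Of the 296 genes past 2-fold lower, 295 have such a ratio, and 70 were lower in targeted refed liver as well (23.7%), while 222 were higher. Members were higher in targeted refed liver in 509 of 667 cases, so most genes leaned the same way in the refed pair whichever way they differed in the fasted pair. Median refed log2 ratios were 0.25 for the genes higher and 0.43 for the genes lower in targeted fasted liver. Past 2-fold in both states and in the same direction stood 29 of the higher and 13 of the lower genes. Opposite and past 2-fold in both states stood 3 of the higher and 37 of the lower genes. Gstm3 at log2 ratios of 2.42 fasted and 2.62 refed, Scara5 at -1.77 and -2.02 and Gatad1 at -2.59 and -2.34 are described genes with nearly the same ratio in both states.

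**Figure D4:**
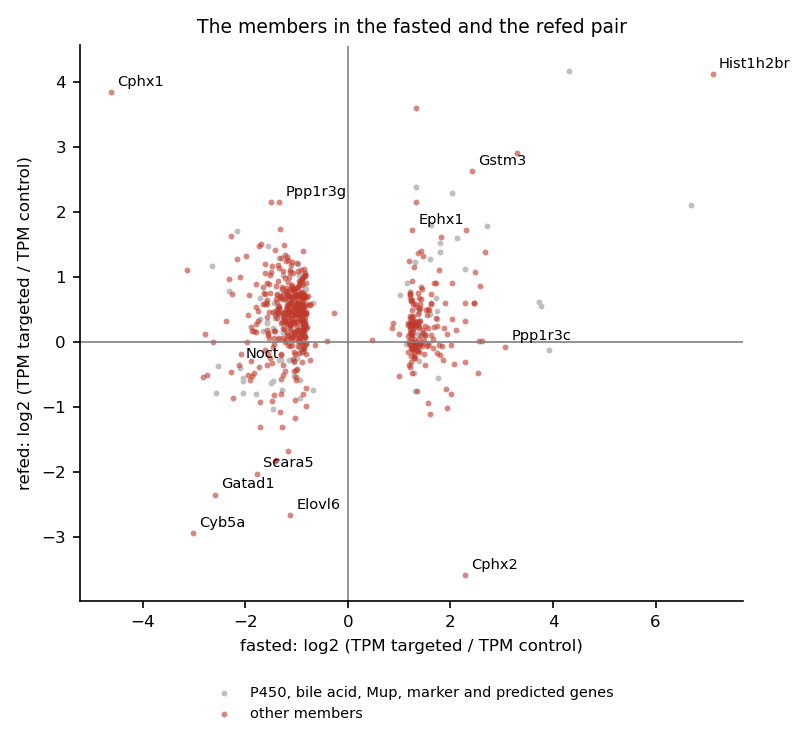
Log2 ratio of TPM, targeted over control, in the fasted pair (x axis) and in the refed pair (y axis) for the 667 members with both ratios, 1 point a gene; grey points are P450, bile acid, Mup, marker and predicted genes and red points the other members. The lower genes of the fasted pair lie mostly above 0 on the y axis, while Cyb5a, Gatad1, Scara5 and Elovl6 lie below 0 on both axes.

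Neighbouring genes were looked at after the values were seen. In the RefSeq gene order (GRCm38.p6), 55 pairs of adjacent protein-coding genes are both members, and 44 of the pairs had the same direction. Many are tandem copies that can share reads, and among the 27 pairs whose names have different stems 19 had the same direction. With 70% of members lower, that share alone would give 58% of pairs with 1 direction. The 27 pairs still include related genes, such as Sdsl and Sds or Ifi204 and Mndal. Zpr1 and Bud13, adjacent genes for a zinc finger protein and a splicing factor, were 2.24-fold (2.08 to 2.42) and 2.75-fold lower (2.23 to 3.41). Tymp and Odf3b were both higher, as were Prpf8, the core splicing factor, and Tlcd2. Mt2 and Mt1, Fos and Jdp2, and Sdsl and Sds were pairs of lower neighbours.

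At the borders of the selection, Ccdc102a had 0.18 TPM in targeted fasted and 0.98 TPM in control fasted liver and fell short of the minimum, while Tfcp2l1 passed it with 1.03 TPM in targeted fasted and 0.43 TPM in control fasted liver. Serpina3g, at 8.04 TPM in targeted fasted and 16.1 TPM in control fasted liver, lay just past 2-fold, and Fpr1, at 4.05 TPM in targeted fasted and 8.08 TPM in control fasted liver, just short of it. Slc17a4, a phosphate carrier gene, lay just short of 2-fold on the higher side with 29.8 TPM in targeted fasted and 14.95 TPM in control fasted liver.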

How the data were processed

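Total RNA of mouse liver was sequenced in 4 libraries, 1 a group, and groups were taken from the sample titles. Per the file headers, the deposited fasted table gives TPM and FPKM in all 4 libraries (2 decimals), a log2 ratio (targeted over control) and a p-value, both computed by the authors. Aligner, annotation, genome build and strandedness were not given in any source used here. No adjusted p-values were computed and the deposited p-values, which compare the reads of 2 libraries, served only to recover reads.

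Members were the genes with TPM of at least 1 in either fasted library. The log2 ratio was recomputed from TPM without a pseudocount and repeated from FPKM, and 2-fold was the line for a call. The deposited log2 ratio was found to be a ratio of read numbers with up to 2 decimals and the deposited p-value a doubled Audic-Claverie tail of them cut to whole reads, at a total read ratio of 1.01. Both numbers were solved within a relative tolerance of 0.001 for 605 of 701 genes with a p-value above 0, in 504 of which they were whole, and approximated for the others. For the 21 genes with a p-value of 0, the fewest reads that allow it were used, which gives the widest interval. A 95% Clopper-Pearson interval was taken for the ratio of reads and shifted onto that of TPM. Intervals cover counting error only, as PCR copies cannot be recognised without molecular identifiers. Recovered reads of both fasted libraries together had a median of 241 over 649 members (13 to 11388). The recovery was tested on simulated data.

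Lists of genes by function, and the members themselves, were chosen with earlier results of these data known. Named genes are the 15 highest and lowest ratios with at least 2 TPM in the higher library, the 10 most abundant past 2-fold in each direction, up to 6 of each list, those at 0 in a library and those at the borders. Other named genes were chosen after their values were seen, among them Akr1b8, Bmp6, Btg2, Ccn2, Ces2c, Fabp4, Fitm2, Maff, Nqo1, Plin4, Sdsl, Serpina12, Slc20a2, Slc25a30, Smad7, Ugt1a9, Zfp36 and Zfp36l2 and the genes for which the text says so. Transcript lengths came from GENCODE M21 by gene identifier, promoter windows and gene order from RefSeq (GRCm38.p6), where 504 and 666 of the 670 members matched. Motifs were searched on both strands, overlaps counted. Alternatives were FPKM, the deposited ratio, pseudocounts of 0.1 and 1 TPM, no minimum and a minimum of 5 TPM. Python 3.11.15, NumPy 2.4.6, pandas 2.3.3, SciPy 1.17.1 and matplotlib 3.10.9 were used. Refed values were read from the fasted table, and the shorter second sheets were not used. A withheld item is not reported here.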

Additional observations from a re-analysis of the deposited data

Results flagged for a closer look

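Of the named genes, 12 were past 2-fold in the fasted pair and past 2-fold in the opposite direction in the refed pair. Among all members past 2-fold with a refed ratio, 3 of 195 higher and 37 of 295 lower genes did the same. In the refed pair 76.3% of all members were higher in targeted liver. With 1 library a group the difference between the pairs was not tested. The values are log2 ratios of TPM, targeted over control. Ciart stood at -1.50 in the fasted pair and 2.15 in the refed pair, where its level was 0.31 TPM in targeted and 0.07 TPM in control liver. Ppp1r3g stood at -1.34 fasted and 2.15 refed, and Mt2 at -1.09 fasted and 1.23 refed. Fos stood at -1.61 fasted and 1.07 refed, and Fam107a at -2.10 fasted and 1.0 refed. Slc15a2 stood at -1.74 fasted and 1.48 refed, and Top2a at -1.23 fasted and 1.34 refed. Ppp1r3g, Fos and Slc15a2 were also at low levels in both refed libraries, as given above, which makes their refed ratios uncertain. Glipr1 stood at -3.14 fasted and 1.11 refed, Lat, an adaptor of T cell receptor signalling, at -2.28 fasted and 1.64 refed, and Ifi27l2a, an interferon-responsive gene, at -1.10 fasted and 1.18 refed. The homeobox paralogues were the pair with the largest turn, with Cphx1 at -4.63 fasted and 3.84 refed and Cphx2 at 2.29 fasted and -3.58 refed.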

How the results depend on the processing

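No paired analysis was possible because each group has 1 library. No gene named by the rule turned its direction in 568 recomputed values of 142 genes, and 121 values moved beyond their counting interval. An equal pseudocount on both sides cannot turn a ratio, and all genes were preselected on the deposited ratio. That no direction turned is therefore no check of the directions. Between TPM and FPKM, 4 named genes left and 9 entered the 2-fold line. The share of lower genes among those past 2-fold, 60.0% on TPM, was 72.2% on FPKM with its own minimum, 71.5% on FPKM for the same genes, 70% on the authors' deposited ratio, 47.1% with a pseudocount of 1 TPM, 55.0% at a minimum of 5 TPM and 65.6% with whole-read genes alone. The count of lower genes, 296, was 460 on FPKM for the same genes, 469 on the deposited ratio, 128 with a pseudocount of 1 TPM and 155 at a minimum of 5 TPM. The count of higher genes, 197, was 127 at a minimum of 5 TPM and 114 with whole-read genes alone. The share of lower genes that were lower in refed liver too, 23.7%, was 35.2% with a pseudocount of 1 TPM, 32.9% at a minimum of 5 TPM and 16.2% with whole-read genes alone. The last setting, and one without the marker lists, were chosen after seeing the data. A pseudocount shrinks the ratios of low genes and a higher minimum tests fewer genes by construction, and for the other settings the cause was not tested. Depth limits the genes with few reads, such as Gtse1 with 4 targeted and 31 control reads, whose interval runs from 2.45-fold to 27.0-fold lower.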
